A study of Drosophila melanogaster with 4 samples.

Results

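Of the sites called for the RNA helicase Maleless (MLE) across the genome of early male Drosophila melanogaster embryos, 1310 regions carried a called peak in both groups of 0-2 h embryos and in neither group of 2-4 h embryos. Overlapping peaks of 4 deposited peak lists were merged into regions when they shared at least 1 base, chromosome Y was left out, and regions were kept by which lists they held. These 1310 regions are 3.11% of the 42156 merged regions. Presence and absence of peaks in the 4 lists chose them, so these values describe the regions and are not a finding about them.

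Sites were mapped by CUT&RUN, which directs micrococcal nuclease to a chromatin protein through an antibody and sequences the DNA cut free around it. The 4 groups were embryos from MTD-GAL4>CLAMPRNAi mothers at 2-4 h, from MTD-GAL4>GFPRNAi (control) mothers at 2-4 h, from MTD-GAL4>CLAMPRNAi mothers at 0-2 h, and from MTD-GAL4>GFPRNAi mothers at 0-2 h. MTD-GAL4 drives RNAi in the female germline, so it is the mother's supply of CLAMP to the egg that is depleted, and the controls carry the same driver with an RNAi construct against GFP. All embryos were male progeny of crosses with meiotic drive stocks and were used whole, so a peak can come from any of their cells. Each group was represented by 1 peak list, and differences between lists have no replicate check. The lists held 15890 peaks in CLAMP RNAi 2-4 h, 25026 in control 2-4 h, 22489 with CLAMP RNAi at 0-2 h and 28246 in control 0-2 h, covering 4.66, 8.88, 7.47 and 9.81 Mb in that order. The lists give no read numbers, so the depth behind a missing peak is unknown. Levels of CLAMP and MLE were not measured in these files.

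MLE is an ATP-dependent helicase that unwinds the roX RNAs so that they can join the Male-Specific Lethal (MSL) complex, which raises transcription of the single male X. CLAMP is a zinc finger protein, deposited by the mother, that binds GA repeats and helps to bring the MSL complex to the X. The first hours of fly development run on maternal RNA and protein while nuclei divide rapidly in a syncytium. Zygotic transcription becomes widespread at the maternal to zygotic transition, which the study's design places between its pair of ages.

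Sharing an age was not the commonest way in which exactly 2 lists held a region. Regions of both 0-2 h lists only numbered 1310, and regions of CLAMP RNAi 0-2 h and control 2-4 h only, which share neither age nor genotype, numbered 1574. Regions of both control lists only numbered 2690. The remaining pairs had fewer, namely 593 for control 0-2 h with CLAMP RNAi 2-4 h, 532 for both 2-4 h lists and 371 for both CLAMP RNAi lists. The lists differ in length, and these numbers are not corrected for it. Of the 16309 regions that held a peak of both 0-2 h lists, 8.03% were without a 2-4 h peak.

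The control 2-4 h list did most of the excluding. When the CLAMP RNAi 2-4 h list was left out, 1555 regions met the rule, close to the 1310 found with it. When the control 2-4 h list was left out, 7732 regions did. Control 2-4 h is also the longer of these lists, with 25026 peaks against 15890. Scores of at least 50 in both 0-2 h lists, a limit that is not on a common scale between them, were found in 7.71% of the 1310 regions.

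In each of the 0-2 h lists, most of the 1310 regions were weak. The score of a peak is the authors' own value on a scale particular to each list, so scores of different lists are set side by side and not compared, and each is also given as a percentile, the share of that list's peaks with the same or a lower score. In CLAMP RNAi 0-2 h the region scores lay between 14 and 279, with a median peak score of 37 and a median percentile of 28.5. In control 0-2 h they lay between 13 and 208, with a median peak score of 33 and a median percentile of 35.1. Regions of both 0-2 h lists that also held a 2-4 h peak had median percentiles of 65.7 in CLAMP RNAi 0-2 h, against 72.2 in control 0-2 h. None of the 1310 regions ranked in the top 10% of either 0-2 h list, and 74 of them (5.65%) lay in the upper 50% of both.

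**Figure D1:**
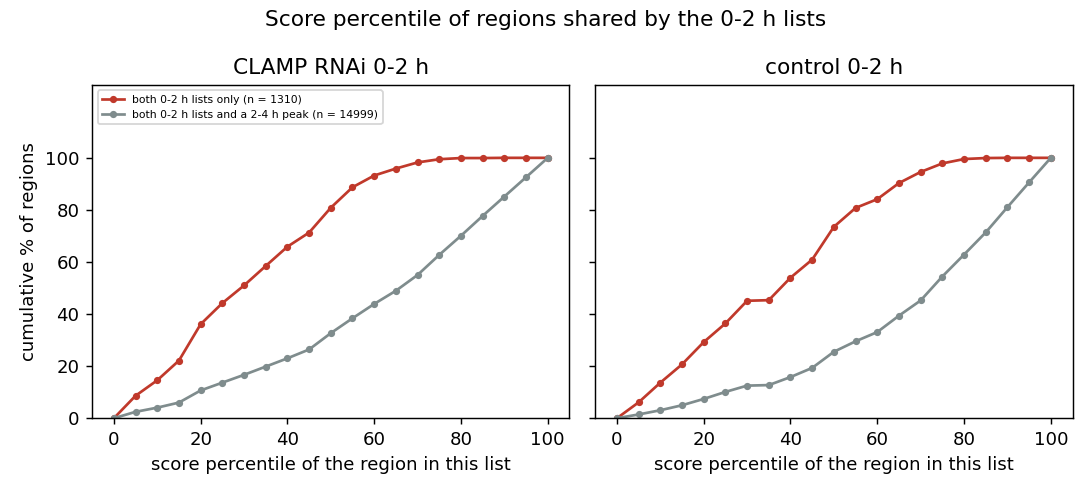
Cumulative percent of regions (vertical axis) up to each score percentile (horizontal axis) in CLAMP RNAi 0-2 h and control 0-2 h. Of the regions of both 0-2 h lists only, 80.8% lie at or below the 50th percentile of CLAMP RNAi 0-2 h, and 73.5% do so in control 0-2 h, against 32.7% and 25.5% of the regions that also hold a 2-4 h peak.

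The strength of such a region in one genotype said little about its strength in the other. Across the 1310 regions, Spearman's rho between the percentiles of the CLAMP RNAi and control 0-2 h lists was 0.038, a description over regions that share their libraries and that the rule kept because both lists called them. The percentile was higher in CLAMP RNAi 0-2 h in 583 regions and higher in control 0-2 h in 727. Other two-list patterns were similarly weak: both control lists only had a median percentile of 40.5 in control 0-2 h, and CLAMP RNAi 0-2 h with control 2-4 h only had 32.8 in CLAMP RNAi 0-2 h.

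Weak shared 0-2 h regions were without a 2-4 h peak far more often than strong ones, a description, since the rule reads the same lists. Regions of both 0-2 h lists were ranked by the lower of their 2 percentiles and divided into 10 groups. In the weakest group 417 of 1673 regions, or 24.9% (22.9% to 27.1%, exact Clopper-Pearson 95% interval, counting error only), had no 2-4 h peak. In the fifth group the share was 5.37% (4.31% to 6.59%), and in the seventh it was 0.554%, or 9 of 1626. In the 3 strongest groups 0 of 1645, 0 of 1613 and 0 of 1630 regions were without a 2-4 h peak.

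Peaks of the 1310 regions were also narrow, and the peaks of both genotypes shared less of their length than where a 2-4 h peak was present. The median width was 217 bp in CLAMP RNAi 0-2 h and 259 bp in control 0-2 h, against 366 bp and 364 bp over all peaks of these lists. The lowest width called, 200 bp, made up 34.8% of the region's peaks in CLAMP RNAi 0-2 h, against 29.9% in control 0-2 h, against 19.1% and 21.9% of all peaks of those lists. In the 1301 regions with a single peak per list the peaks shared a median of 200 bp, and their midpoints lay a median of 79.5 bp apart. Of the 14999 regions with a 2-4 h peak, 14282 had a single peak per 0-2 h list and direct overlap between these peaks. Regions whose 0-2 h peaks met only through a 2-4 h peak were left out. In the 14282 regions the 0-2 h peaks shared a median of 372 bp and their midpoints lay 24 bp apart. At least 50% of the shorter peak was shared in 80.0% of the 1301 regions, against 96.4% of the 14282. In 513 of the 1301 regions (39.4%) 1 peak lay wholly within the other, against 65.6% of the 14282. Peak limits were identical in 40 of the 1301 regions (3.08%), against 10.0% of the 14282. Whole regions had a median width of 376 bp, against 374 to 378 bp in the other patterns of exactly 2 lists. Peak widths and shared lengths were not compared with those patterns.

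A 2-4 h peak was often close by. The median distance to the nearest 2-4 h peak was 1216 bp (1144 to 1303 bp, order-statistic 95% interval), and 563 of the 1310 regions (43.0%) had a 2-4 h peak within 1000 bp. The nearest such peak belonged to control 2-4 h in 879 regions and to CLAMP RNAi 2-4 h in 373, with 58 ties. The same median distance was 1199 bp for regions of CLAMP RNAi 0-2 h alone, against 1278 bp for those of control 0-2 h alone.

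The regions just inside the rule missed a 2-4 h peak by 1 to 14 bp. They lay at 2L 19273594 to 19274136 near lncRNA:CR44190, at 3L 7956543 to 7956873 near exex, which encodes a homeodomain factor of motor neurons, at 3R 19802199 to 19802460 in bnl, which encodes an FGF ligand, at X 3704724 to 3705066 in Rala, which encodes a small GTPase, and at 3L 15732992 to 15733453 near comm, which controls Robo receptors on axons. Their percentiles ranged from 11.4 to 51.8 in CLAMP RNAi 0-2 h and from 18.3 to 45.4 in control 0-2 h. The 6 regions just outside shared 19 to 21 bp between a 0-2 h and a 2-4 h peak. They lay in dpr12, CG13012, CG42327, dpy and Fas2 and near unk, with percentiles from 4.75 to 59.9 in CLAMP RNAi 0-2 h and from 18.3 to 80.0 in control 0-2 h. The values of the regions inside and outside overlap.

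The X held fewer of these regions than of the shared 0-2 h regions that had a 2-4 h peak. Of the 1310 regions, 269 lay on the X, a share of 20.5% (18.4% to 22.8%), against 27.8% (27.1% to 28.6%) of the 14999 regions of both 0-2 h lists with a 2-4 h peak. The difference was -7.31 points (Newcombe 95% interval -9.53 to -4.93, counting error over regions only). Against all other regions, of which 21.9% lay on the X, the difference was -1.35 points (-3.49 to 0.96), an interval that includes 0. The X share of regions of both 2-4 h lists only was 18.2% (15.04% to 21.8%), so the share among the 0-2 h regions was 2.30 points higher with an interval of -1.79 to 6.10.

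**Figure D2:**
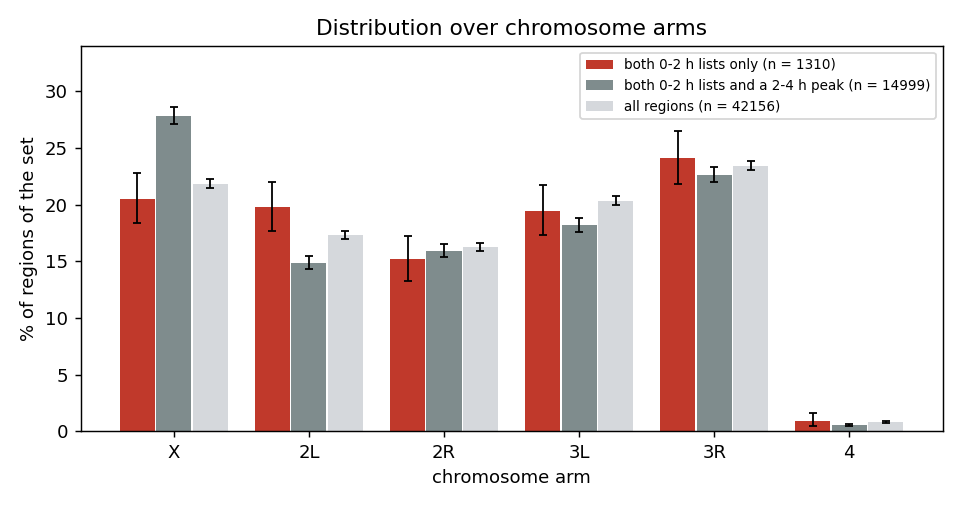
Percent of the regions of each set (vertical axis) on each chromosome arm (horizontal axis), with exact 95% intervals of counting error as error bars. The X holds 20.5% of the regions of both 0-2 h lists only, against 27.8% of those with a 2-4 h peak and 21.8% of all regions.

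The X difference was smaller when regions were grouped by strength, and no interval was computed for the grouped value. Among regions of both 0-2 h lists, 6.05% of those on the X and 8.77% of those on autosomes had no 2-4 h peak, a difference of -2.72 points (-3.57 to -1.83). Averaged over the 10 strength groups with equal weights for X and autosomes, the shares were 6.95% on the X and 8.37% on autosomes, a difference of -1.42 points. The X share was below the autosomal share in 6 of the 7 groups that held such regions and above it in 1, and the intervals overlapped in each of the 7. Peaks were also denser on the X, where the 2-4 h lists carried 437.9 peaks per Mb against 277.6 per Mb on autosomes. The nearest 2-4 h peak lay a median of 832 bp (696 to 1009 bp) away on the X and 1308 bp (1221 to 1413 bp) away on autosomes. When a 2-4 h peak within 1000 bp also excluded a region, the X share was 16.1% of the 747 regions left. The other ways of processing that were tried gave X shares of 20.3% to 25.5%. The X share of the regions with a 2-4 h peak was not recomputed in these ways. The parts of strength and of peak density in the X difference were not tested.

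**Figure D3:**
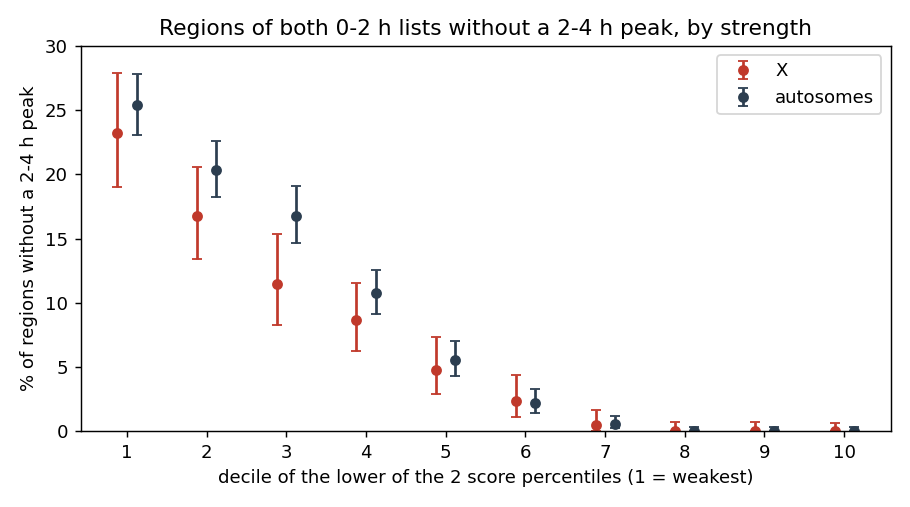
Percent of the regions of both 0-2 h lists that have no 2-4 h peak (vertical axis), by decile of the lower of their 2 score percentiles (horizontal axis), on the X and on autosomes, with exact 95% intervals of counting error. The share is 23.2% on the X and 25.4% on autosomes in the weakest decile and 0 on both in the 3 strongest.

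Among the 5 large arms, 2L had the largest share of shared 0-2 h regions without a 2-4 h peak. On 2L 259 of 2486 regions of both 0-2 h lists had no 2-4 h peak, or 10.4% (9.24% to 11.7%). The share was 7.69% (6.69% to 8.78%) on 2R, 8.55% (7.57% to 9.61%) on 3L and 8.51% (7.63% to 9.45%) on 3R, so the interval of 2L overlapped those of 3L and 3R and not those of 2R and the X. Chromosome 4 held 12 of these regions among 93, or 12.9% (6.85% to 21.5%). Per Mb of arm, the X carried 11.4 of the 1310 regions, 2L 11.01, 3R 9.85, 3L 9.08, 4 8.91 and 2R 7.88.

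Gene ends, which include promoters, were rarer among these regions than among the regions of both 2-4 h lists only. A midpoint no more than 500 bp from a gene's nearer end was found in 213 of the 1310 regions, or 16.3% (14.3% to 18.4%), against 132 of the 532 regions of both 2-4 h lists only, or 24.8% (21.2% to 28.7%). The difference was -8.55 points (-12.8 to -4.49), and with a window of 200 bp it was -6.15 points (-9.68 to -2.97). Against the regions of both 0-2 h lists with a 2-4 h peak, of which 15.6% lay at gene ends, the difference was 0.69 points (-1.30 to 2.87). All regions together had 18.0%, and the other patterns of exactly 2 lists had 17.5% to 19.95%, below both 2-4 h lists only. Midpoints inside a gene made up 71.2% of the 1310 regions and 72.4% of the regions of both 2-4 h lists only. The gene table gives no strand, so the start and the end of a gene cannot be told apart.

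**Figure D4:**
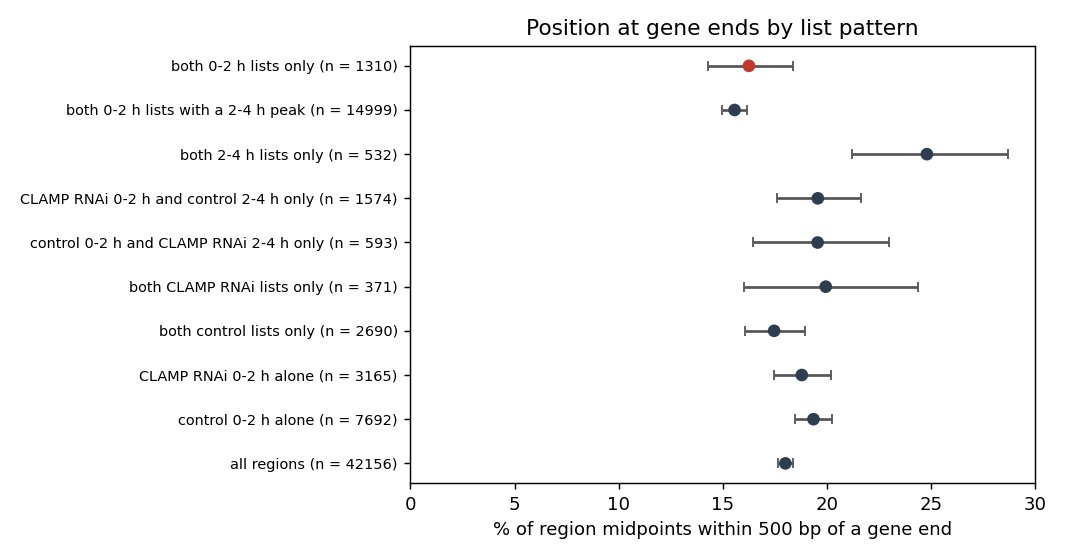
Percent of region midpoints no more than 500 bp from a gene's nearer end (horizontal axis) for regions grouped by the lists that hold them (rows), with exact 95% intervals of counting error. The regions of both 0-2 h lists only lie at 16.3% and those of both 2-4 h lists only at 24.8%.

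The strongest of the 1310 regions, ranked by the weaker of their 2 percentiles, reached percentiles of 64.0 to 75.45 in CLAMP RNAi 0-2 h and of 66.2 to 77.2 in the control list of that age. The first lay outside genes at 2L 1547873 to 1548152, with haf as the nearest gene, and scored 112 in CLAMP RNAi 0-2 h, with 92 in control 0-2 h, percentiles of 71.5 and 73.4. The second, at 3R 20140528 to 20140820 near lncRNA:CR42836, scored 129 in CLAMP RNAi 0-2 h, with 81 in control 0-2 h. The third, at X 14711783 to 14711982, lay inside NetB, which encodes a Netrin guidance cue for axons, and scored 98 in CLAMP RNAi 0-2 h, with 109 in control 0-2 h. These 3 regions lay in the upper 50% of both 0-2 h lists, 2460, 1228 and 978 bp from the nearest 2-4 h peak.

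Regions next in strength touched genes of varied roles. In Gp210, which encodes a nuclear pore glycoprotein, the region at 2R 5773813 to 5774194 scored 95 in CLAMP RNAi 0-2 h, with 98 in control 0-2 h. Near Ino80, the ATPase of a chromatin remodelling complex, the region at 3R 19367374 to 19367618 scored 95 in CLAMP RNAi 0-2 h, with 92 in control 0-2 h. In Lim1, a LIM homeodomain factor, the region at X 8805238 to 8805492 scored 95 in CLAMP RNAi 0-2 h, with 71 in control 0-2 h. The others lay in p120ctn, a catenin of adherens junctions, in ry, the xanthine dehydrogenase gene, in CG34375, CG14086 and CG4928, and near CG42682, with scores of 85 to 135 in CLAMP RNAi 0-2 h and 70 to 110 in control 0-2 h. The 3 regions tied for the last place were all kept, which gives 12 in all, and 4 of the 12 lay outside genes.

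The 5 longest regions reached 899 to 1072 bp. The longest, at 3L 23747023 to 23748094 in CG17698, scored 56 in CLAMP RNAi 0-2 h, with 50 in control 0-2 h. The next, at 2L 16772628 to 16773643 in Mhc, the muscle myosin heavy chain gene, scored 65 in CLAMP RNAi 0-2 h, with 37 in control 0-2 h. The other 3 lay in CG3764 and trv and near lncRNA:CR43303, and their control 0-2 h percentiles ran from 8.19 to 60.7. The region in trv had the lowest control 0-2 h percentile of the 5, with a score of 16 there and of 56 in CLAMP RNAi 0-2 h.

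The 1310 regions were spread over many genes. Their midpoints fell inside 771 of 17684 genes, or 4.36%, and these 771 are 10.1% of the 7606 genes that held a midpoint of any region. A single midpoint lay in 615 of these genes, 2 in 109 and at least 3 in 47. Outside genes lay 377 of the 1310 regions. Genes with a midpoint of these regions were long, with a median of 22.3 kb against 4.05 kb for genes with a midpoint of any region, as a count of midpoints favours. Of the 1310 regions, 26.9% lay inside a gene of at least 50 kb, against 25.04% of all regions. By class, the 771 genes comprised 719 of 13922 protein-coding genes (5.16%), 43 of 1959 lncRNA genes (2.2%) and 5 of 503 antisense RNA genes (0.99%). They also comprised 3 of 260 miRNA genes (1.15%) and 1 of 290 tRNA genes (0.345%). The share over all genes was 4.36%.

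At least 4 midpoints lay in each of 16 genes, all at least 51.8 kb long. The gene kirre, an immunoglobulin superfamily gene that acts in myoblast fusion, held 11 of these regions among 189 regions in its 394.1 kb on the X. The gene pum, which encodes the maternal translational repressor Pumilio, held 7 of 76. Ten-a, a teneurin of synapse partner matching, held 6 of 134. Both bru3, an RNA-binding protein gene, with 124 regions, and lncRNA:CR32773, with 122, held 5. The 10 genes with 4 each were CG46301, Dop2R, Myo81F, Rbp6, dnc, hth, lilli, lncRNA:CR44997, shep and side-II. Picking genes by their number of midpoints favours high shares. In 15 of the 16 the regions made up between 2.03% (Myo81F) and 17.4% (Dop2R, a dopamine receptor) of all regions in the gene, against 3.11% of all regions.

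The exception was 5-HT2B, a serotonin receptor gene at 3R 8578205 to 8629996, where 5 of 15 regions were of this kind, and 5 of the 7 regions with both 0-2 h peaks. It is described because its share stood out among the 16 genes, which was seen before it was chosen. From lower to higher coordinates, the CLAMP RNAi 0-2 h scores were 44, 29, 61, 65 and 26, and the control 0-2 h scores were 30, 33, 37, 16 and 22. Each of the 5 was modest in both lists, and the nearest 2-4 h peaks lay 4834, 990, 1743, 1660 and 2688 bp away. Within 2 kb of the gene there were also 4 peaks from the CLAMP RNAi 2-4 h list and 7 from the control 2-4 h list, so the locus itself was not free of 2-4 h peaks.

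**Figure D5:**
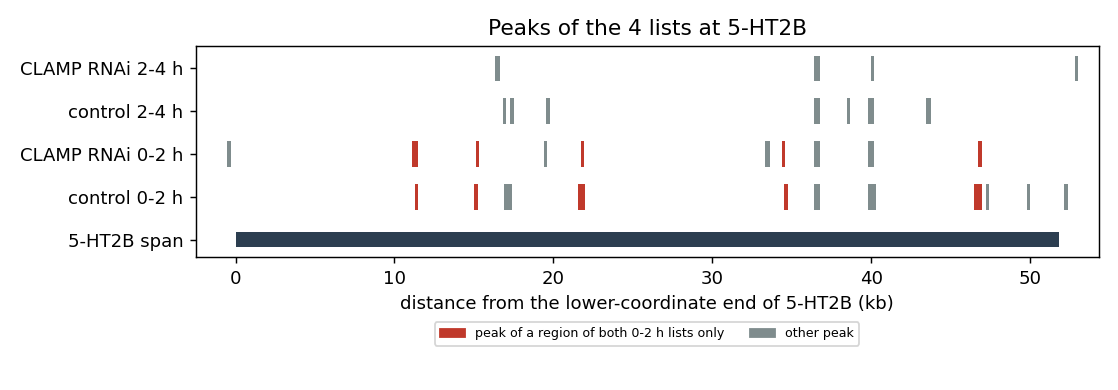
Peaks of the 4 lists (rows) along the serotonin receptor gene 5-HT2B, with the distance from the lower-coordinate end of the gene in kb on the horizontal axis. The 5 regions of both 0-2 h lists only are drawn in red and overlap no 2-4 h peak, of which CLAMP RNAi 2-4 h has 4 and control 2-4 h has 7 in the window.

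Gene lists for early development were described next, by the share of all regions in their gene spans that belonged to the 1310, read against 3.11% over all regions. Of 8 MSL complex and roX genes, mof, which encodes the histone acetyltransferase of the complex, held 1 of the list's 15 regions. That region, at X 5875719 to 5876368, scored 23 in CLAMP RNAi 0-2 h, with 26 in control 0-2 h and lay 1343 bp from a 2-4 h peak. No midpoint lay in roX1, roX2, mle, msl-1, msl-2, msl-3 or Clamp. Of 14 sex determination and X counting genes, 5 held such regions, which were 6 of 123 regions, or 4.88% (1.81% to 10.3%). In Sxl, the master switch of female development, the region at X 7077676 to 7078058 scored 25 in CLAMP RNAi 0-2 h, with 20 in control 0-2 h. The others were in da, fru, gro and dsx. The stronger dsx region in control 0-2 h, at 3R 7960034 to 7960427, scored 48 in CLAMP RNAi 0-2 h, with 65 in control 0-2 h.

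Lists of transcription factors and patterning genes had shares whose intervals include that of all regions. None lay in the 7 genes of pioneer and GA-binding factors, with 0 of 74 regions, where a count of 0 allows a share of up to 4.05% (3 counts of the total; exact 95% upper limit 4.86%). None lay in the 11 gap genes, with 0 of 51 regions, which allows up to 5.88% by the same rule (exact 95% upper limit 6.98%). A region outside hkb, a terminal gap gene, and within 1000 bp of it scored 33 in CLAMP RNAi 0-2 h, with 70 in control 0-2 h. Of 10 pair-rule genes only Ten-m, a teneurin, held any, with 2 of the list's 62 regions, or 3.23% (0.39% to 11.2%). Of 12 segment polarity genes, fz, the Frizzled receptor gene, held 3 regions and hh, the Hedgehog ligand gene, held 2, together 5 of 107, or 4.67% (1.53% to 10.6%). The Hox list had 5 of 148 regions, or 3.38% (1.11% to 7.71%), of which 3 were in Antp and 2 in Scr. The strongest Hox region in CLAMP RNAi 0-2 h, at 3R 6841434 to 6841826 in Scr, scored 160 there and 30 in control 0-2 h, and the strongest in control 0-2 h, at 3R 6976523 to 6976895 in Antp, scored 51 in CLAMP RNAi 0-2 h, with 105 in control 0-2 h. The dorsoventral list had 7 of 109 regions, or 6.42% (2.62% to 12.8%), in dpp, a BMP ligand gene, in twi, Doc2 and Tl, the Toll receptor gene. Regions also lay outside wg, of the segment polarity list, and spz, of the dorsoventral list, and within 1000 bp of them.

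Shares in the lists of maternal, cell cycle, cellularisation and adhesion genes had intervals that include 3.11% as well. The germ plasm and axis list had 10 of 181 regions, or 5.52% (2.68% to 9.93%), 7 in pum and 3 in bru1, a translational repressor gene of the germline, and 0 in its other 19 genes. The 7 pum regions scored 26 to 71 in CLAMP RNAi 0-2 h and 19 to 48 in control 0-2 h, and lay 318 to 2100 bp from a 2-4 h peak. The list of the syncytial cell cycle had 2 of 28 regions, both in CycE, which encodes the cyclin of S phase entry. Among genes of cellularisation only Sxl, listed as an early zygotic gene, held 1 of 23. Of 41 adhesion and axon guidance genes 20 held such regions, which were 45 of 1200 regions, or 3.75% (2.75% to 4.99%). Although 20 of the 41 genes held such a region, the share of regions was near that of all regions. Regions of the 1310 also lay outside trk, CycA, nullo and Nin, genes of these lists, and within 1000 bp of them.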

How the data were processed

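Anti-MLE CUT&RUN was done on whole male embryos of 4 groups. The authors deposited 1 peak list per group, each line giving a peak's position, name and score. Per the submitters' processing notes, the tools included FastQC, Trim Galore, BWA, Bowtie2, SAMtools, Picard 2.20.2 and MACS2, with build dm6, and the order, thresholds and any control library are not given in the sources used here. The deposited score has no stated meaning or common scale, and it was used to rank peaks within a list and, as an alternative, with a limit of 50. How the replicates of the design text were combined is not stated.

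Repeated intervals were collapsed to the highest score, namely 67 in CLAMP RNAi 2-4 h, 2683 in control 2-4 h, 1548 with CLAMP RNAi at 0-2 h and 2519 in control 0-2 h. Peaks on 6 arms were merged when they shared at least 1 base (Python 3.11.15, pandas 2.3.3, SciPy 1.17.1, statsmodels 0.14.6). Merging and distances were tested on simulated lists. Genes came from RefSeq's table of Release 6, the build dm6. Of the listed genes, nos and fzr1 had no match and were left out, and plexA and PlexA matched the same gene. Coordinates are 1-based. Sequences were not analysed here, nor were the planned promoter motifs.

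With 1 list per group there is no test between groups. Intervals are exact Clopper-Pearson (shares), Newcombe (differences) or order-statistic (medians) 95% intervals, covering counting error over regions only. Named were the 10 strongest regions, the 5 longest, the 5 just inside and 5 just outside the rule and the 10 genes with most midpoints, ties kept, with regions in or within 1000 bp of listed genes. The regions and lists were chosen with earlier results of these data known.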

Additional observations from a re-analysis of the deposited data

How the results depend on the processing

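Of 50 recomputed values, 23 stayed within 1.5 times the count or within the 95% interval, and 27 did not. No paired analysis was possible because each group had 1 list and the labels give no replicate numbers. The number of regions was 634 with a score of at least 50 in all lists, 102 with that score in the 0-2 h lists alone, 747 where a 2-4 h peak within 1000 bp excluded, 7732 without the control 2-4 h list and 788 with lists cut to 15890 peaks. The X share was 24.8%, 25.5%, 16.1% and 23.7% under the first 4 of these, and 22.2%, within its interval, under the cut. The median percentile in CLAMP RNAi 0-2 h was 57.5 and 56.2 at the score limits, 48.6 without control 2-4 h and 51.8 in cut lists. In control 0-2 h it was 66.2, 60.7, 57.6 and 60.7 in the same order. The median distance to a 2-4 h peak was 2338 and 1128 bp at the score limits, 1015 bp where joining needed 50% of the shorter peak, 1336 bp where it allowed gaps of 200 bp, 2244 bp with the 1000 bp exclusion, 1447 bp without CLAMP RNAi 2-4 h, 2395 bp without control 2-4 h and 1646 bp in cut lists. Gene ends took in 8.32% with a window of 200 bp and 27.4% with 1000 bp, and stayed within the interval otherwise. The score limits raise the percentiles by construction. Cutting lists to their higher scores does so too, since the percentiles were those of the full lists. The 1000 bp exclusion sets a floor under the distances, and dropping 2-4 h peaks cannot bring a given region's nearest one closer. Leaving out control 2-4 h let in regions with peaks in each list except CLAMP RNAi 2-4 h. With all lists merged, there were 6392 of these, with 0-2 h median percentiles of 51.8 (CLAMP RNAi) and 60.7 (control). The cause of the other moves was not tested. The count was lowest with the score limit on the 0-2 h lists and highest without the control 2-4 h list. The unknown depth of the 2-4 h lists limits what a missing peak shows.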

Other observations

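Some of the 1310 regions lay close together. Neighbouring regions were a median of 62.3 kb apart, 1038 of them had no other within 10 kb, and 13 chains with steps of at most 10 kb held at least 3. The longest chain had 4 regions, between 2L 9032315 and 9045936, outside genes. A chain of 3 lay between 3R 27970922 and 27973202 in betaTub97EF, a beta-tubulin gene. There 3 of 11 regions were of this kind, or 27.3%, against 3.11% of all regions. The gene was picked for its chain, which favours a high share. Another chain of 3 lay between 3R 9069857 and 9082648 in pum. These chains were not compared with chains of other regions.

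The region farthest from any 2-4 h peak lay at 3L 26967332 to 26967531, 39172 bp away, and scored 20 in CLAMP RNAi 0-2 h, with 22 in control 0-2 h. The nearest gene, CG40228, was 114659 bp away. Farther than 10000 bp from a 2-4 h peak lay 22 of the 1310 regions, 2 of them on the X.

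On the Y, which the rule leaves out, 3 of 202 merged regions had a peak in both 0-2 h lists and in neither 2-4 h list, and 77 had a peak in both 0-2 h lists.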
